A study of Mus musculus with 24 samples.

Results

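The sites described here are stretches of DNA called as accessible in mouse embryonic stem cells with each of 2 hairpins against Chd4 and not called in cells with the hairpin named shluci. They were chosen by their calls in 6 ATAC-seq peak lists: a peak of Chd4 shRNA1 replicate 1 that overlapped a peak in shRNA1 replicate 2, shRNA2 replicate 1 and shRNA2 replicate 2, and no peak in either shluci list. This rule found 3196 sites among the 140936 peaks of shRNA1 replicate 1, called the anchor list below, or 2.27%. The calls in these 6 lists are therefore a description of how the sites were selected, and support nothing further. The comparisons below use the 18 libraries outside the Chd4 set, the genome sequence and the annotation, and where Chd4 libraries are set beside each other again, for repeated sequences, the values are a description only.

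CHD4 is the ATP-driven remodelling subunit of the NuRD complex, which joins nucleosome movement to histone deacetylation and acts mostly at enhancers and promoters to lower accessibility. It also works in the ChAHP complex with ADNP and HP1 proteins, which binds at many transposable elements and competes with CTCF at some of them. CHD8 is another remodeller of the same family that has been described as a partner of CTCF, the zinc-finger protein that anchors chromatin loops together with cohesin. ATAC-seq marks open chromatin because the transposase inserts its adapters where DNA is not wrapped in nucleosomes.

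All 24 libraries came from E14 cells with an auxin-inducible degron on CTCF (genotype CTCF AID), in 12 groups of 2. The Chd4 set held shluci, shRNA1 and shRNA2 cells, and so did the Chd8 set, in both cases without the auxin IAA, which triggers the degradation of the tagged CTCF. A line labelled as overexpression control was sampled with and without 12 h of IAA. Cells that overexpress CTCF in its wild-type or in a mutated form were sampled only with 12 h of IAA, and these 8 libraries are called the CTCF lines. The serum set was CTCF AID cells without IAA and after 12 h of IAA, labelled as grown in serum, although the growth protocol names serum-free medium for every library. The labels leave unsaid which residues the mutated CTCF differs in, whether the 2 libraries of a group came from separate cultures, or how far CHD4 or CHD8 fell, and a knockdown cannot be checked with peak lists.

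List length ranged from 80619 to 141742 peaks for Chd4, 135410 to 166697 for Chd8, 120137 to 155087 for the CTCF lines and 59786 to 82502 for serum libraries. Peaks of both Chd sets were short, with a median length of 80 to 135 bp (Chd4) and 75 to 138 bp (Chd8). Those of the CTCF lines (283 to 456 bp) and of the serum set (371 to 417 bp) were longer. The pileup, meaning the number of overlapping reads or fragments at a peak's summit, was worked back from the deposited fold and −log10 p. Its median over a list was 5 to 8 for Chd4 and 7 to 10 for Chd8 libraries, compared with 26 to 30 for CTCF lines and 18 to 21 for serum libraries. Calls in the Chd4 set thus rested on few reads, and an absent call is a pileup under the list's limit rather than closed chromatin.

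The sequences of 7 of the 8 strongest sites and of 1 site with the CTCF consensus are shown because the results on repeats, octamers and CTCF turn on them. The strength of a site was its lowest rank among the 4 shRNA lists, as the percentage of the list's peaks with a lower −log10 p. Each line holds the bases around a summit in GRCm38, from RefSeq, with matches to the octamer ATTTGCAT (bound by POU factors such as OCT4), to CCAATCA (bound by NF-Y) and to the CTCF consensus in capitals, on either strand.
chr5:41781658-41781808, plus strand: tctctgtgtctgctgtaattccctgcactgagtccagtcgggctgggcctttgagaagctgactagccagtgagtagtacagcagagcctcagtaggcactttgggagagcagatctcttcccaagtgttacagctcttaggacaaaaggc
chr12:96849604-96849754, plus strand: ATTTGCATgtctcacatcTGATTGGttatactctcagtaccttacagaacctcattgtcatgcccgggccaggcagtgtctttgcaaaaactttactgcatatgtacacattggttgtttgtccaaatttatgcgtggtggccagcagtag
chr5:9452966-9453116, plus strand: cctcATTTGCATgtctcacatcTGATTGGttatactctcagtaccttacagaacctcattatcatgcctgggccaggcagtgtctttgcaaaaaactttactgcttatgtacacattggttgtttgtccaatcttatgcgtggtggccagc
chr13:84905922-84906072, plus strand: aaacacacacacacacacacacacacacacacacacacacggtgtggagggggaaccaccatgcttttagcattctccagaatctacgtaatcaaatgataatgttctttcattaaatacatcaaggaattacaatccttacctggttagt
chr10:51082371-51082521, minus strand: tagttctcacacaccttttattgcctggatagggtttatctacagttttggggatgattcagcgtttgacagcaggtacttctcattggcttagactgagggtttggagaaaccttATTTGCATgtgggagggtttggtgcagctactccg
chr17:67497622-67497772, plus strand: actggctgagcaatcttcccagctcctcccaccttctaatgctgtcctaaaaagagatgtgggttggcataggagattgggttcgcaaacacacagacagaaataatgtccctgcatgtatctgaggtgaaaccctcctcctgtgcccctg
chr17:20548198-20548348, plus strand: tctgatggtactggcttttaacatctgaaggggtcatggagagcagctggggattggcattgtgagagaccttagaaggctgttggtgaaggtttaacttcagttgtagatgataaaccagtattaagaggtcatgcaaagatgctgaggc
chr14:13777546-13777696, plus strand: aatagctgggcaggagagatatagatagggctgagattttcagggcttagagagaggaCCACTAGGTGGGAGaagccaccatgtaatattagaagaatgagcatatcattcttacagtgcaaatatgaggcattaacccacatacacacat

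The sequences from chr12:96849604-96849754 and chr5:9452966-9453116 were 96.4% identical over the aligned part of their windows, and each held an octamer and a CCAAT match. The ones from chr5:41781658-41781808 and from chromosome 10 fell into another group of alike sequences (family 6 below). The one from chromosome 13 begins with a run of CA dinucleotides, and the one from chromosome 14 holds the CTCF match.

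The strongest site, at chr5:41781602-41781848, lies in intergenic DNA 17232 bp from the start of Nkx3-2, a homeobox gene of skeletal and gut development. Its pileup was 30 and 39 in the shRNA1 libraries and 30 and 29 in the shRNA2 libraries. It was called in all 18 libraries outside the Chd4 set, and a shluci peak lay 61 bp away. The site at chr12:96849576-96849751, 73379 bp from the start of Gm6863, had pileups of 21, 23, 21 and 20 in the same order. It was called in 1 of the 18 other libraries, and the nearest shluci peak was 1066 bp away. The site in an intron at chr5:9452994-9453117 had pileups of 22, 31, 22 and 18 and was called in 4 of 18. These first sites thus ranged from called everywhere to called almost nowhere outside the Chd4 set.

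Among the 8 strongest, 3 further sites were called in 0 of the 18 other libraries. The intergenic site at chr13:84905947-84906056, 283411 bp from Ccnh, had pileups of 19, 20, 22 and 18. The intergenic site at chr10:51082373-51082519, 186795 bp from Sim1, a bHLH-PAS factor of neurons and kidney, had 13, 20, 19 and 20. The intergenic site at chr17:67497619-67497742 had 16, 25, 20 and 19, with a shluci peak 683 bp away. A site at chr17:20548228-20548327, in an intron of the vomeronasal receptor gene Vmn2r109, had 17, 15, 14 and 16 and was called in 1 of 18.

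Most sites were weaker than these. The median pileup of the 3196 sites was 7, 8, 7 and 7 in shRNA1 replicates 1 and 2 and shRNA2 replicates 1 and 2, against 5, 7, 5 and 7 over all peaks of these lists. A pileup of at least 10 in all 4 libraries was reached by 150 sites (4.69%), and of at least 20 by 2 sites. The median site ranked above 75.4%, 66.9%, 77.5% and 67.0% of the peaks of the 4 lists. The sites were 108 bp long in the median, compared with 88 bp for all peaks of shRNA1 replicate 1.

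Of 23499 peaks called in all 4 shRNA lists, 16363 were also called in both shluci lists, 3940 in 1 of them and 3196 in neither. The 3940 peaks just outside the rule had a median pileup of 7 in shRNA1 replicate 1 and of 6 in the shluci library that called them, and the 3196 sites had 7 in shRNA1 replicate 1. Another 6904 peaks missed 1 of the shRNA lists and both shluci lists, with a median pileup of 5. The opposite rule, from the list of shluci replicate 1, gave 11324 lost sites of 135583 peaks (8.35%). That rule asks for 2 calls and 4 absences where the first asks for 4 calls and 2 absences, so the counts are not a measure of net change. The number of sites depended on each list in turn. It was 5587 without shRNA1 replicate 2, 5001 without shRNA2 replicate 1, 5904 without shRNA2 replicate 2, 5505 without shluci replicate 1, 4827 without shluci replicate 2 and 4594 without shRNA1 replicate 1.

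Many sites stood close to a peak that the shluci cells did have. A shluci peak lay within 500 bp of 1190 sites (37.2%) and within 100 bp of 294, while the median distance was 2930 bp. Sites within 500 bp of a shluci peak were called in a median of 8 of the 18 other libraries. The 1880 sites more than 1000 bp away were called in a median of 2, and 32.2% of them in none, against 9.92% of the near ones. Anchor peaks were not split by this distance, so the difference cannot be read as particular to the sites. Any shared base counted as a call, and peaks of the CTCF lines and the serum set were longer in the median than the sites. A peak on neighbouring DNA could thus count as a call of a near site, and how often it did was not tested.

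Outside the Chd4 set the sites were called less often than the anchor list as a whole, of which 38.7% and 35.1% were called in the Chd4 shluci lists while the sites by their rule were not. In the control line without IAA 36.1% and 35.0% of them were called, against 51.1% and 50.0% of all peaks of shRNA1 replicate 1. The lost sites were called there at a mean of 82.9% ± 1.32 (SD, n = 2), and the 16363 peaks called in all 6 Chd4 lists at 93.5% ± 0.903. Of the 3196 sites, 755 (23.6%, Wilson 95% interval 22.2 to 25.1) were called in none of the 18 libraries and 60 in all 18, with a median of 3 libraries. Over all peaks of the anchor list the same shares were 26.9% and 14.2%, with a median of 7. In at least 1 of the 6 libraries without IAA and without a hairpin against a Chd gene (control line, Chd8 shluci and serum), 59.0% of the sites were called, below the 64.1% of all anchor peaks and the 94.0% of lost sites. The widest pair of libraries was Chd8 shluci, at 24.3% and 33.9%.

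**Figure D1:**
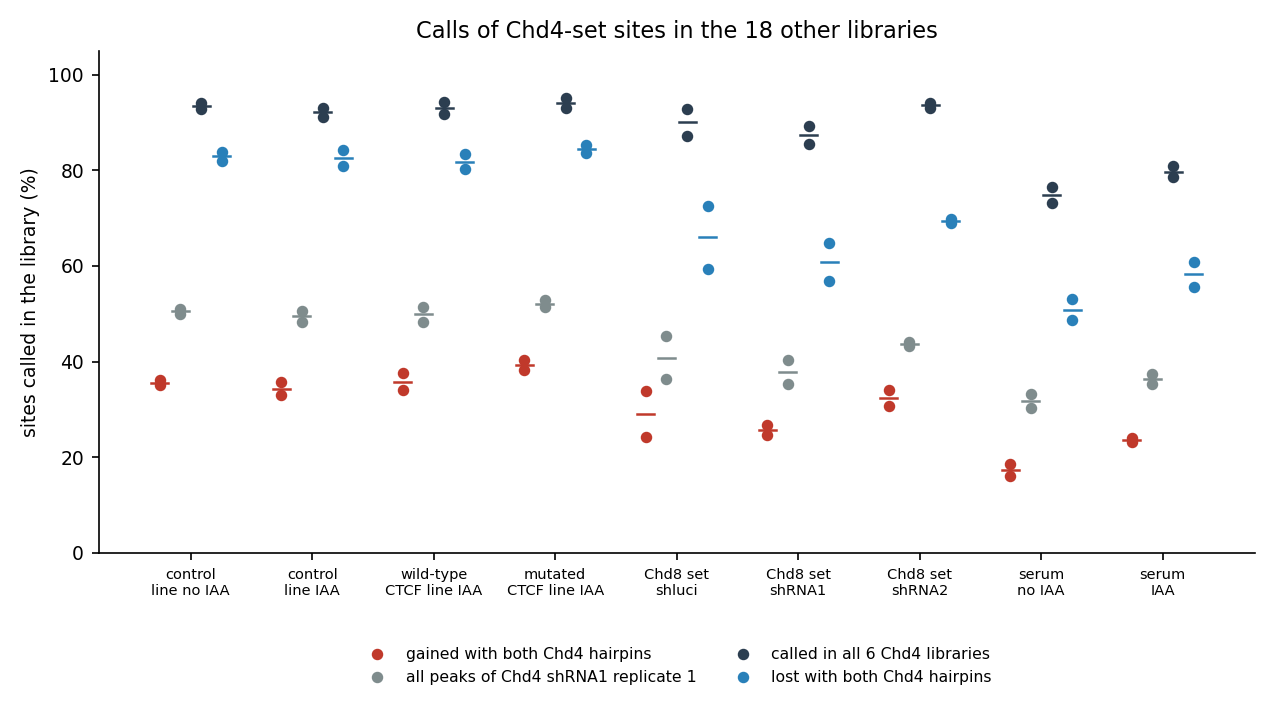
Percentage of sites (y axis) called in each library outside the Chd4 set (x axis, 9 groups of 2 libraries), for sites gained and lost with both Chd4 hairpins, peaks called in all 6 Chd4 libraries and all peaks of the anchor list. Points are libraries and bars are group means. The gained sites (red) lie below the other 3 sets in every group, from 16.2% in serum without IAA to 40.3% in the mutated CTCF line.

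Peaks that also lacked a call in both Chd4 shluci lists, a comparison chosen after seeing the data, recurred at shares near those of the sites or lower. Of the 6904 such peaks called in 3 of the 4 shRNA lists, 25.4% were called in none of the 18 libraries, with a median of 3. Of the 50336 called in shRNA1 replicate 1 alone, 56.6% were called in none, with a median of 0. The share called in both Chd8 shluci libraries was 3.52%, 9.70%, 13.4% and 15.5% for peaks without a shluci call in 1, 2, 3 and 4 shRNA lists. The gained sites, in all 4, thus had the highest of these shares.

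Among the 25% of the anchor list with the highest −log10 p, 15.6% of 1624 gained sites were called in both Chd8 shluci libraries, against 60.2% of 33627 other peaks. In the lowest 25% the shares were 9.57% of 230 gained sites and 10.3% of 34941 other peaks. Other peaks had medians of 0, 3, 11 and 15 of 18 libraries from the lowest 25% to the highest, and gained sites had medians of 3, 3, 4 and 3. The other peaks include those called with shluci. Among the 2068 peaks of the highest 25% with calls in 3 shRNA lists and none with shluci, the share in both Chd8 shluci libraries was 14.7% and the median 3, near the values of the gained sites. By the rank in a site's weakest list the picture was similar. The 78 sites ranked above 90% of every list were called in a median of 3 libraries, and the 894 sites with a rank under 25% in some list in a median of 4.

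**Figure D2:**
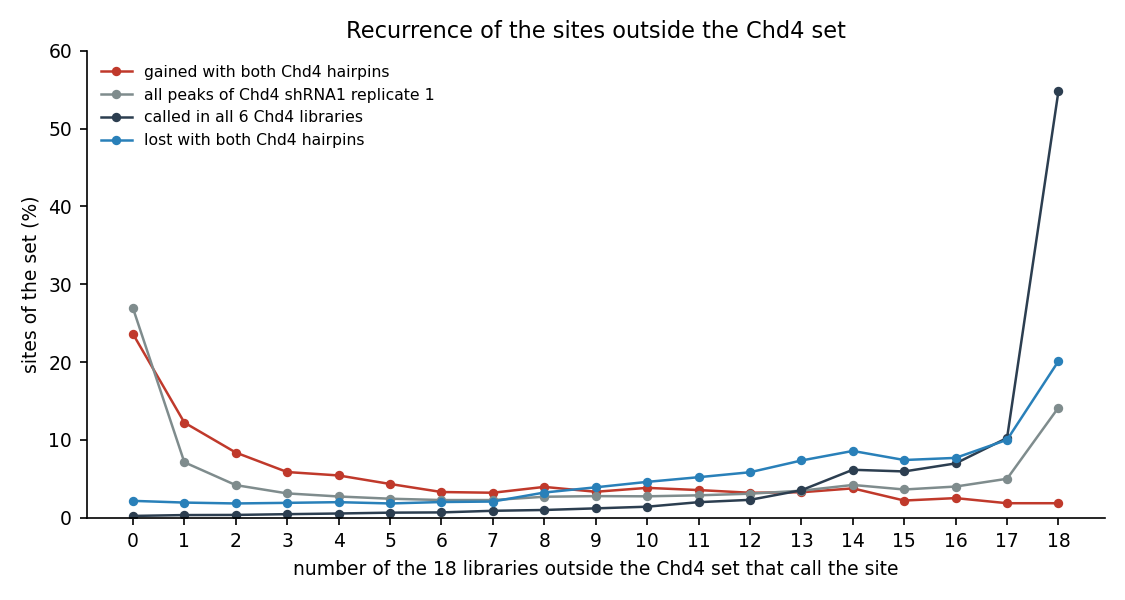
Percentage of each set of sites (y axis) by the number of the 18 libraries outside the Chd4 set that called the site (x axis). The gained sites fall from 23.6% at 0 libraries to 1.88% at 18, while 54.8% of peaks shared by all 6 Chd4 libraries are called in all 18.

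The Chd8 set asks whether the same sites opened with hairpins against another remodeller. The share of the sites called was 24.3% and 33.9% with shluci, 26.7% and 24.6% with shRNA1 and 30.7% and 34.1% with shRNA2. The 6 libraries overlapped, and the shRNA mean minus the shluci mean was −0.0782 percentage points, within a spread of 7.96 (root of the summed squared SDs, here and below). Over all peaks of the anchor list the difference was −0.0804 points. By the same rule as in the Chd4 set, called in all 4 Chd8 shRNA libraries and in neither Chd8 shluci library, 17 of the 3196 sites (0.532%) were gained, beside 0.392% of all anchor peaks. The opposite pattern was found for 29 sites (0.907%), beside 0.556%. Only 13 of the 3196 sites (0.407%) overlapped one of the 1699 sites gained within the Chd8 set (0.765% of these), while 0.351% of all anchor peaks did.

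Both Chd8 shluci libraries called 494 of the sites (15.5%, Wilson 95% interval 14.2 to 16.8), compared with 30.7% of all anchor peaks, 51.2% of lost sites and 84.3% of the peaks shared by all 6 Chd4 libraries. This share moved with the rule: it was 26.0% without Chd4 shluci replicate 1, 24.8% without shluci replicate 2, 28.2% with a −log10 q of at least 5 and 10.3% when no shluci peak was allowed within 500 bp. It also moved with the length of the Chd8 lists, to 7.04% when these were reduced to that of the shortest Chd4 list. The strongest of the 17 sites, at chr2:109848521-109848785, lies in intergenic DNA 42217 bp from Lin7c, which encodes a scaffold protein of cell junctions. Its pileups in the Chd4 shRNA libraries were 9, 15, 23 and 19, and it was called in 9 of 18 libraries outside the set. Another lies 282 bp from a start of Lrrc4c, a gene for an adhesion molecule of synapses, at chr2:96317616-96317983, with pileups of 13, 9, 20 and 12 and calls in 14 of 18. The remaining ones named by rank were an intronic site at chr13:25110469-25110521 and an exonic one of Gm13929 at chr2:112000995-112001162, called in 5 and 13 of 18.

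The CTCF lines and the serum set show how the sites responded when CTCF was degraded. In serum-free medium the control line called 36.1% and 35.0% of the sites without IAA and 35.8% and 32.9% after 12 h of IAA. The groups overlapped, and the difference of −1.20 points lay within the spread of 2.21. With lists of equal length the difference was 1.048 points, of the opposite sign. In serum the sites were called at 18.7% and 16.2% without IAA and 24.1% and 23.1% with IAA. The libraries with IAA stood 6.18 points higher, beyond a spread of 1.91, and the groups did not overlap. All anchor peaks moved the same way in serum, by 4.62 points, and the IAA lists were the longer ones. With lists of 59786 peaks each the sites differed by 3.71 points and all anchor peaks by 2.57, again without overlap.

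After IAA the line with wild-type CTCF called 34.1% and 37.5% of the sites, which overlapped the control line with IAA. The line with mutated CTCF called 38.2% and 40.3%, above both control libraries with IAA, by 4.88 points with a spread of 2.51. The same comparison over all anchor peaks gave 2.61 points. With lists of 120137 peaks, an alternative chosen after seeing the data, the mutated and control lines overlapped and differed by 2.55 points.

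Called in both libraries of one group and neither of the other, 50 of the sites (1.56%) were gained with IAA in serum-free medium and 88 (2.75%) lost, beside 1.19% and 2.18% of all anchor peaks. In serum 119 (3.72%) were gained and 32 (1.00%) lost, beside 2.63% and 1.23%. Against the control line with IAA, 72 (2.25%) were gained and 45 (1.41%) lost in the wild-type line, beside 1.5% and 1.1%. The mutated line gained 91 (2.85%) and lost 28 (0.876%), beside 1.77% and 0.613%. In all of these comparisons except loss in serum the sites stood above the anchor list, in both directions. A site called on and off in these lists need not have changed, and no test was run on these counts.

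The CTCF consensus of 14 bases was searched within 100 bp of each summit, allowing 1 mismatch, and was found at 48 sites (1.502%, Wilson 95% interval 1.13 to 1.99). It was found at 2.02% of all anchor peaks, 2.34% of lost sites and 2.33% of peaks shared by all 6 lists. Windows 1000 bp to either side of the sites held it in 0.282% and 0.313%. Peaks without a shluci call in 1, 2 and 3 shRNA lists held it in 1.42%, 2.08% and 2.06%. The share at the sites was thus lower than in all of these sets but the peaks in 1 shRNA list, and higher than in the DNA around the sites.

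Calls at these 48 sites were fewer in the libraries where CTCF was degraded. Without IAA the control line called 25 and 21 of them, and with IAA it called 8 and 6. The wild-type CTCF line with IAA called 18 and 15, and the mutated line 17 and 15. In serum 18 and 19 were called without IAA and 4 and 6 with IAA. In both media the groups did not overlap, and the libraries with either CTCF transgene lay between the control line with and without IAA. In serum, gained sites without the consensus were called at 17.1% ± 1.82 without IAA and 23.8% ± 0.786 with IAA (SD, n = 2). In the control line they were called at 35.4% ± 0.719 without IAA and 34.7% ± 2.04 with IAA. Over the 2849 anchor peaks with the consensus, the same groups stood at 65.3% ± 0.596 and 38.4% ± 1.27, so calls were fewer with IAA at these peaks as well. In the Chd8 set 26 and 23 of the 48 were called with shluci, 20 and 17 with shRNA1 and 15 and 19 with shRNA2, and all 4 shRNA libraries lay below both shluci libraries. Over all anchor peaks with the consensus the Chd8 shares were 56.4% ± 4.74 with shluci, 52.4% ± 3.4995 with shRNA1 and 53.8% ± 0.0993 with shRNA2, and these overlapped. Gained sites without the consensus were at 28.7% ± 6.92, 25.4% ± 1.46 and 32.3% ± 2.34.

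**Figure D3:**
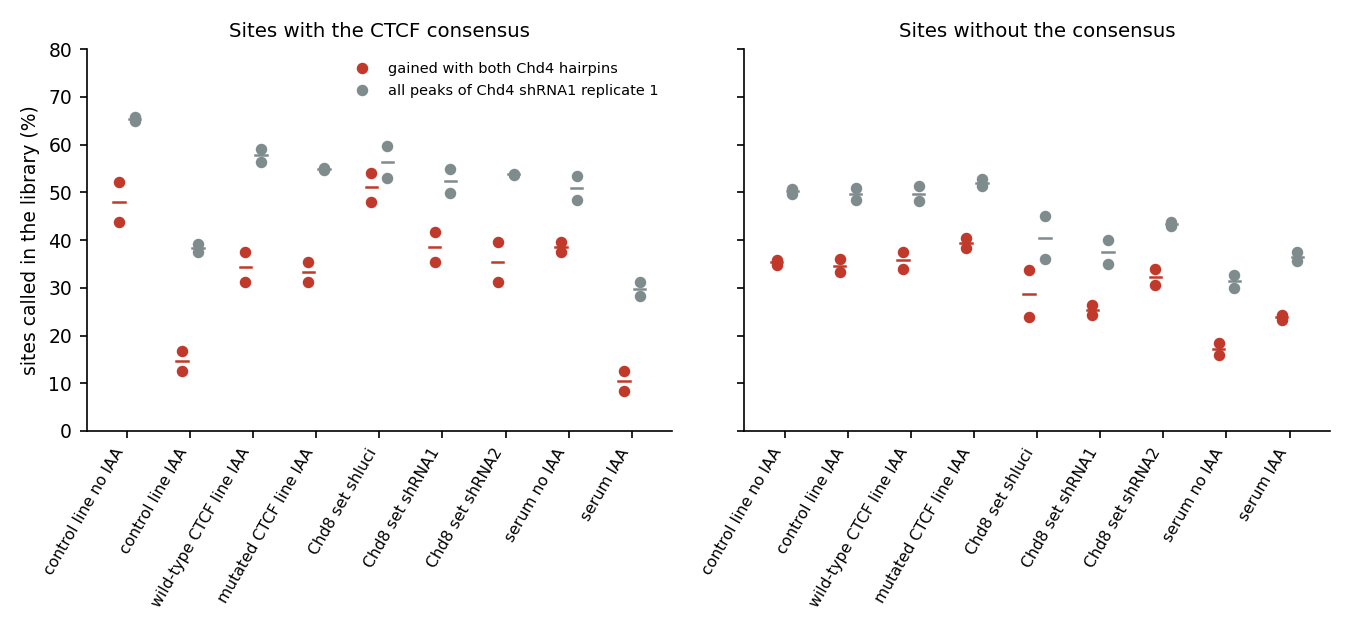
Percentage of sites called (y axis) in each group of 2 libraries outside the Chd4 set (x axis), for sites with the CTCF consensus (left) and without it (right). Points are libraries and bars are means. Of the 48 gained sites with the consensus, 25 and 21 are called in the control line without IAA and 8 and 6 with IAA, while sites without it stay at 35.4% and 34.7%. In serum the gained sites without it stand at 17.1% without IAA and 23.8% with IAA.

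Among the sites with the consensus, the printed window at chr14:13777546-13777696 belongs to a site with pileups of 9, 12, 8 and 10, called in 0 of 18 libraries and 193 bp from a shluci peak. A site at chr5:7646111-7646283 had 11, 14, 11 and 10 and was also called in 0 of 18. One at chr5:146330671-146330748, 54276 bp from Wasf3, an actin regulator, had 8, 12, 15 and 14 and was called in 9 of 18, including both control libraries without IAA and 1 of the control libraries with IAA.

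Besides CTCF, 23 short motifs were searched as exact matches on both strands within 100 bp of the summit. At least 1.5 times as frequent at the sites as at all anchor peaks were 4 of them. The octamer ATTTGCAT occurred at 137 sites (4.29%, Wilson 95% interval 3.64 to 5.05), against 2.15% of anchor peaks, 1.74% of lost sites, 1.71% of sites gained in the Chd8 set and 2.13% and 1.63% of the windows 1000 bp to either side. CCAATCA occurred at 225 sites (7.04%), against 3.75%, 3.89%, 2.30% and 2.35% and 2.60% in the same order. Both occurred together at 52 sites (1.63%), compared with 0.305% of anchor peaks. Among peaks without a shluci call, the octamer share was 1.94%, 2.62%, 3.33% and 4.29% for those in 1, 2, 3 and 4 shRNA lists, and that of CCAATCA 3.37%, 4.45%, 5.84% and 7.04%. The 3940 peaks in all 4 shRNA lists and 1 shluci list held them at 3.27% and 5.03%. The other 2 of these 4 motifs, GTTGCCATG (RFX factors) and TGACGTCA (CREB and ATF), were found at 19 and 18 sites. For GTTGCCATG this was 0.594% (Wilson 95% interval 0.381 to 0.927), against 0.381% of anchor peaks, 0.371% of lost sites and 0.440% of peaks shared by all 6 lists. For TGACGTCA it was 0.563% (0.357 to 0.889), against 0.365%, 0.503% and 0.513%. The intervals of both include the share of the anchor list. The T-box sequence AGGTGTG followed, at 7.197% (Wilson 95% interval 6.35 to 8.14) against 5.74%. Of the 23 motifs 12 were above their share in the anchor list. The sequence GCCNNNGGC of TFAP2 factors was rarer, at 4.60% of the sites and 0.664 times its share in the anchor list.

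**Figure D4:**
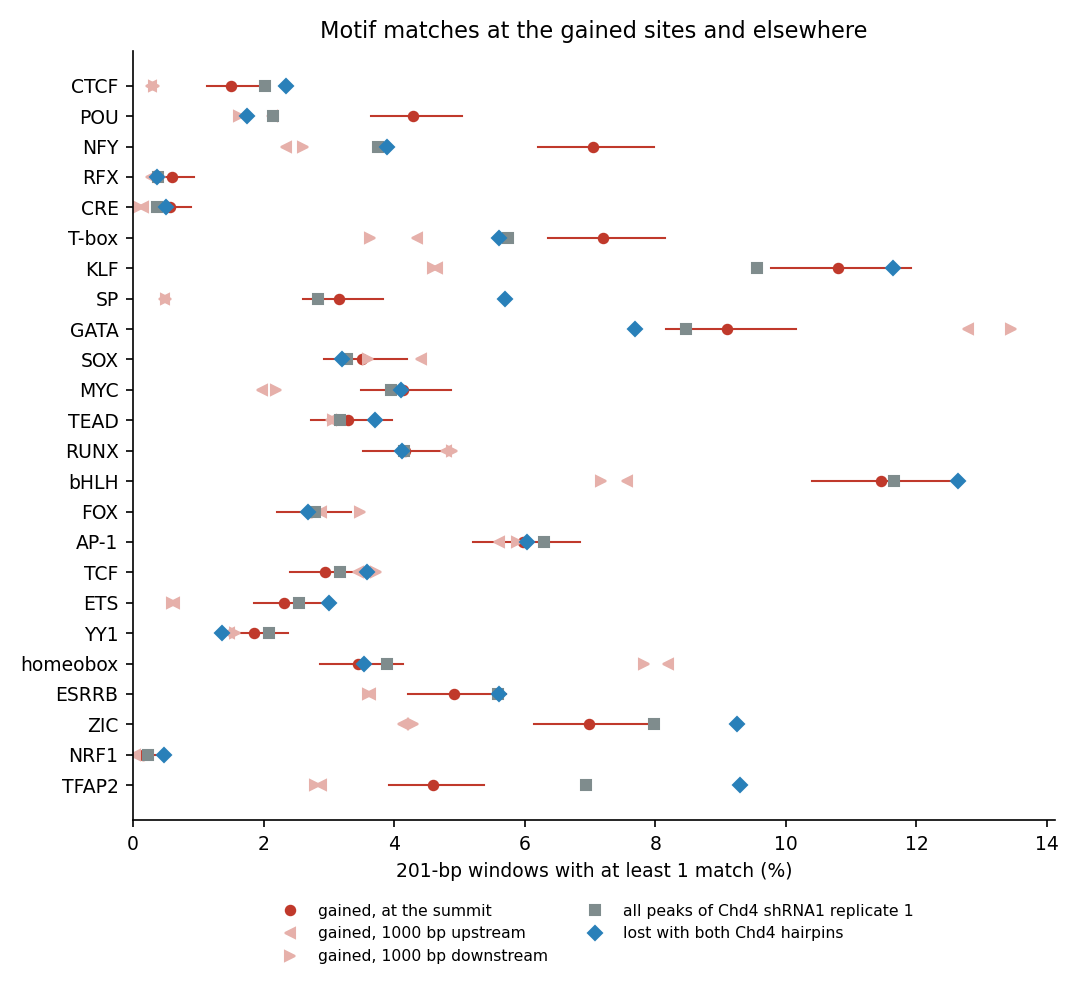
Percentage of windows of 100 bp to each side of a summit (x axis) with at least 1 match of each motif (y axis), at the gained sites, 1000 bp to either side of them, at all anchor peaks and at lost sites. Red bars are Wilson 95% intervals. The octamer (POU, 4.29%) and CCAATCA (NFY, 7.04%) stand above all the other sets shown.

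The octamer and CCAAT matches were concentrated in repeated DNA. The RefSeq genome writes repeats in lower case, and at least 50% of the window was so masked at 742 sites (23.2%), against 16.5% of anchor peaks, 11.6% of peaks shared by all 6 Chd4 lists and 9.57% of lost sites. Of the other peaks without a shluci call, 19.9%, 20.3% and 20.5% of those in 1, 2 and 3 shRNA lists were so masked. In masked windows 10.1% of the sites held the octamer and 14.2% CCAATCA, and in the others 2.53% and 4.89%. Anchor peaks held them in 3.49% and 6.97% of masked windows and in 1.88% and 3.11% of the others. Sites in masked windows were called in a median of 2 of the 18 other libraries, and the others in a median of 4. Anchor peaks differed in the same direction and by more, with medians of 1 and 8. GC content was 48.6% at the sites, 49.9% at anchor peaks and 42.0% and 41.9% in the flanking windows.

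Comparing these windows with each other, at 80% identity over at least 100 bases, placed 512 sites (16.0%) in 63 families of alike sequences, of which 7 held at least 20 sites. This grouping was chosen after seeing the data. Family 1 had 61 sites on 20 chromosomes, with 83.9% of bases masked, 19 octamers and 15 CCAAT matches. Family 2 had 51 sites on 16 chromosomes, 95.4% masked, with an octamer at 40, CCAATCA at 45 and both at 38 of them. The sequences of chr12:96849604-96849754 and chr5:9452966-9453116 printed above, with both matches in capitals, belong to it. Of its sites 21 were called in none of the 18 other libraries, and the median was 1. Outside the 7 families 2.26% of the remaining 2918 sites held the octamer and 5.14% CCAATCA, beside 2.15% and 3.75% in the whole anchor list.

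The families were found through the gained sites, which the rule had taken from the Chd4 shRNA lists and kept out of the shluci lists. A difference between these lists at the families' copies is therefore in part set by the choice, also at copies without a gained site, and is given as a description. All copies of a family in the genome were found from 1 representative window, at 80% identity over at least 150 bases. Family 2 had 1676 copies, of which 83 overlapped a gained site. Peaks were called at 490 and 416 of the copies with Chd4 shRNA1 and at 340 and 315 with shRNA2, against 152 and 94 with shluci. Across the 18 libraries outside the Chd4 set, which the rule did not use, the number was 25 to 225, with the highest in Chd8 shluci replicate 2. Leaving out the copies that hold a gained site gave 407, 341, 267 and 243 with the hairpins against 152 and 94. Per 100000 peaks of a list the copies called were 240 to 455 in the shRNA libraries, 112 and 100.98 with Chd4 shluci and 41.8 to 135 in the others.

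Family 1, with 2964 copies, showed a similar picture. Peaks were called at 432, 320, 435 and 246 copies in the shRNA libraries, 129 and 77 with shluci and 32 to 215 in the 18 others. Without the copies that hold a gained site the numbers were 371, 272, 381 and 194 against 128 and 76. Per 100000 peaks, all copies included, they were 305 to 350 with the hairpins, 95.1 and 82.7 with shluci and 53.5 to 147 in the others. Family 6, which holds the strongest site of all, had 441 copies, of which 102, 94, 113 and 91 were called with the hairpins, 64 and 61 with shluci and 41 to 80 in the 18 others. Per 100000 peaks these were 72.4 to 113 with the hairpins against 47.2 and 65.5, and serum with IAA, at 85.0 and 77.6, lay within the range of the hairpins. Without copies that hold a gained site, the counts were 85, 78, 97 and 75 against 64 and 61. Family 5 had 505 copies, with 115, 106, 125 and 115 against 84 and 82, but 161 to 193 were called in the CTCF lines. Per 100000 peaks its shRNA and shluci libraries overlapped, at 81.6 to 143 against 62.0 and 88.1. Without copies that hold a gained site, the counts of family 5 were 103, 94, 114 and 103 against 84 and 82. In families 3 and 4, with 20224 and 96155 copies, the shRNA and shluci libraries overlapped: 290 to 706 against 250 and 348 copies in family 3, and 189 to 727 against 174 and 273 in family 4. Per 100000 peaks family 3 was at 360 to 498 against 257 and 269, but at 315 to 575 in the CTCF lines. Family 4 was at 234 to 516 against 201.4 and 187, with 286 in Chd8 shluci replicate 2. Family 7 had 79 to 211 against 50 and 78 of 7812, and 15 to 98 in the others. Per 100000 peaks it was at 97.99 to 149.7 against 57.5 and 53.7, and at 25.1 to 58.8 in the others. Without copies that hold a gained site the counts of its shRNA and shluci libraries overlapped, with 198, 99, 187 and 67 against 78 and 50. How reads that align to several copies were treated is not given in the sources used here, so single copies of these families are uncertain, and whether this moves the counts was not tested.

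**Figure D5:**
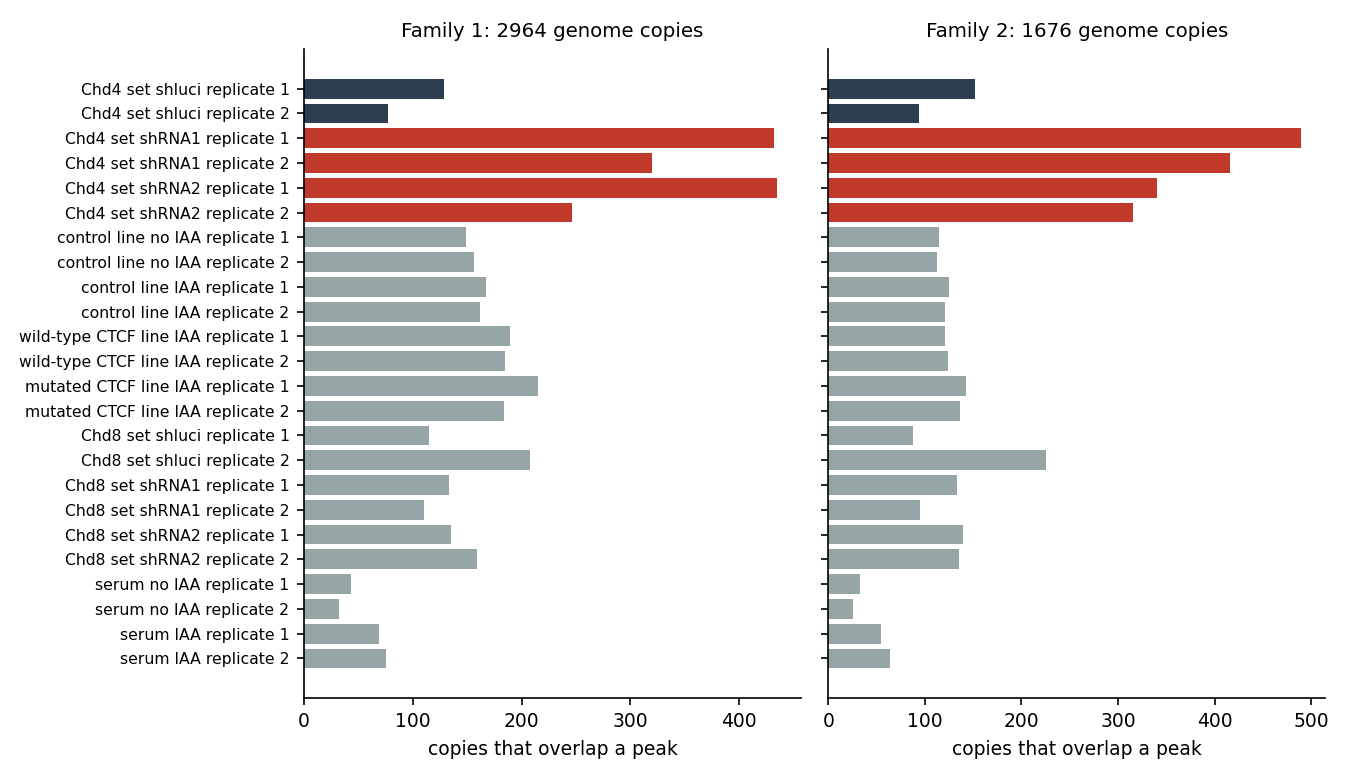
Number of genome copies of sequence families 1 and 2 that overlap a peak (x axis) in each of the 24 libraries (y axis). The families were picked through sites called in the Chd4 shRNA libraries (red bars). Dark bars are Chd4 shluci and grey bars the other 18. In family 2 the shRNA libraries call 315 to 490 copies and all others 25 to 225, and in family 1 they call 246 to 435 and all others 32 to 215.

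Whole peak lists, of which the gained sites are a small part, were compared in the same way. This was also chosen after seeing the data, and for a motif pair picked from the gained sites. Windows with both the octamer and CCAATCA numbered 430, 322, 405 and 276 in the Chd4 shRNA lists and 203 and 125 in the shluci lists. As a share of the peaks they were 0.286% to 0.352% against 0.150% and 0.134%, and 0.116% to 0.245% in the 18 other lists. At least 50% masked were 16.5%, 15.5%, 14.6% and 13.8% of the peaks in the shRNA lists and 11.9% and 11.7% in the shluci lists, compared with 9.28% to 12.3% elsewhere. With the 6 Chd4 lists reduced to 80619 peaks each, the masked shares were 13.8% to 15.7% against 10.4% and 11.5%, without overlap.

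By median distance the sites lay farther from starts of protein-coding genes than the comparison sets. Within 500 bp of an annotated transcription start were 295 of them (9.23%), against 14.9% of anchor peaks, 19.9% of lost sites and 30.7% of the peaks shared by all 6 lists. The 6904 peaks in 3 shRNA lists and no shluci list stood at 9.83%, near the sites, and the 50336 called in shRNA1 replicate 1 alone at 6.10%, below them. Intergenic DNA held 49.8%, introns 36.5%, coding exons 2.91% and other exons 1.53%. The median distance to the nearest start of a protein-coding gene was 72518 bp, and it was 36026 bp for anchor peaks, 54794 bp for the 6904 peaks, 51812 bp for the 50336, 16348 bp for lost sites and 24034 bp for sites gained in the Chd8 set. Sites at a start were called in a median of 12 of the 18 other libraries, those in introns in 4 and intergenic ones in 2. Anchor peaks were not split by class in this way, so the difference cannot be read as particular to the sites. By chromosome, the gained share of anchor peaks ran from 1.34% on chromosome 19 to 2.76% on chromosome 14, with 0 of 8 on Y. Another gained site lay within 1000 bp of 213 sites (6.66%).

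The protein-coding genes nearest to most sites were Dsel and Galntl6, with 11 each, and Robo1, an axon guidance receptor, with 10. These were 11.7%, 11.8% and 6.90% of the anchor peaks nearest to these genes, against 2.27% in all. Next came the adhesion genes Cdh8 and Pcdh9 with 9 each, then Celf2, Gpc5, Nova1, Pcdh17 and Pla2g4a with 7 each. For Cdh8, Pcdh9 and Pcdh17 this was 3.20%, 3.61% and 4.22% of their anchor peaks, which number 281, 249 and 166, and for the other 4 it was 5.30% to 8.75%. Nova1 and Celf2 encode RNA-binding regulators of splicing, and Gpc5 a cell surface proteoglycan. Lost sites were fewer at Dsel, with 1, and at Galntl6, with 3, and equal at Pcdh9, with 9. At least 1 site was nearest to 2126 genes and at least 5 to 52.

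Genes of 15 lists by pathway or cell type were set beside all genes, and those with a site are named after their values were seen, as the counts are small. Within 50 kb of a start, 9.51% of all 21924 protein-coding genes had a gained site and 48.6% a lost one, compared with 28 (9.43%) and 197 (66.3%) of the 297 genes on any list. Among 20 pluripotency genes 1 had a gained site, Tfcp2l1, a transcription factor of naive stem cells, and 18 had a lost one. The 20 genes of formative and primed cells had 4 with a gained site (Fgf5, Otx2, Lefty1 and Lefty2), the 20 mesoderm genes 5 (Hand2, Msgn1, Tcf15, Foxc1 and Isl1) and the 20 germline genes 5 (Sycp3, Stra8, Asz1, Dpep3 and Dnd1). The 19 genes of the 2-cell stage had 3 (Zscan4f, Duxf3 and Usp17la) and the 20 endoderm genes 2 (Sox17 and Dab2). The shares were 20%, 25%, 25%, 15.8% and 10% of these lists, and such small lists shift by several percent with a single gene. Between 1 and 3 genes were found in the trophoblast (1 of 20), neural (1 of 24), Wnt (1 of 16), p53 (1 of 15) and BMP (3 of 20) lists. The 18 NuRD and ChAHP genes had 1, Rbbp7, and 17 with a lost site. No site was found near the 39 Hox genes, the 14 CTCF and cohesin genes or the 15 genes of FGF and ERK feedback, while 30, 11 and 12 of them had a lost site. Genes on a list can stand close together and share a site.

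Within 2 kb of a start, gained sites were found at 5 of the 297 listed genes (1.68%), near the 276 of all 21924 protein-coding genes (1.26%). The site at Fgf5, a growth factor of primed pluripotent cells, had its summit 11 bp from the start (chr5:98254127-98254217), with pileups of 9, 15, 12 and 11. It was called in 16 of the 18 other libraries, and a shluci peak lay 162 bp away. The site at Sox17, an endoderm transcription factor, was 136 bp from its start (chr1:4497177-4497297), had 9, 15, 9 and 14 and was called in 12 of 18. At Msgn1, a factor of presomitic mesoderm, a site 470 bp from the start (chr12:11208437-11208589) had 6, 4, 7 and 9 and was called in 16 of 18. The germline gene Asz1, of the piRNA pathway, had a site 139 bp from its start (chr6:18109032-18109319) with 12, 17, 5 and 8, called in 13 of 18 and 30 bp from a shluci peak. At Dpep3 the site was 110 bp from the start (chr8:105979222-105979339), with 6, 10, 7 and 5 and calls in 5 of 18. At 4 of these 5 starts the sites were therefore called in most libraries outside the Chd4 set. The 295 gained sites at any annotated start were likewise called in a median of 12 of 18.

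The gained sites called in all 18 other libraries numbered 60. Besides the site near Nkx3-2, the strongest were at starts: 117 bp from Zfp772 (chr7:7210060-7210168, pileups 12, 12, 8 and 10), 357 bp from Gm3325 (chr13:62015883-62016033, 7, 11, 7 and 12) and 277 bp from D730003I15Rik (chr1:191224714-191224806, 9, 9, 11 and 10). A shluci peak lay 171, 21573 and 141 bp from them. The fourth of the strongest sites called in 0 of 18, after the 3 given above, lies in an intron of Fam19a2 at chr10:123288061-123288153, with pileups of 17, 16, 21 and 13.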

How the data were processed

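The 24 ATAC-seq libraries each had 1 deposited peak list. Trim Galore, Bowtie2, MACS2, deepTools and the build mm10 are named in the submitters' processing notes, without versions, and filters on alignments are not given in the sources used here. The deposited fold of a narrowPeak line is the authors' ratio of summit signal to background, and the deposited −log10 p and −log10 q rank a peak within its list. Lists began at a −log10 q of 1.301 to 1.3108. All 2958411 peaks fell inside GRCm38 chromosomes, and at most 0.224% of intervals were identical within a replicate pair.

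Overlap meant at least 1 shared base. Pileups were the whole numbers that give the deposited fold and −log10 p under MACS2 without a control. They matched within 0.001 for at least 99.95% of peaks in every list, and in the Chd4 lists for at most 0.615% with the fold set 5% off. Pileup is the measure of depth used here, and Wilson intervals cover counting of sites only. Because pileup counts overlaps, it also rises with the length of reads or fragments, so between library sets it is not sequencing depth alone. Genes came from GENCODE vM21 (basic) and sequences from RefSeq GRCm38. Motifs were searched within 100 bp of summits, and alike sequences with blastn 2.17.0 (e-value 1e-05). Overlap, pileup and motif code was tested on simulated data. Python 3.11.15, numpy 2.4.6 and scipy 1.17.1 were used.

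The sites, gene lists and motifs were chosen with earlier results of these data known, so no test was run and values are given per library. Lost sites, shared peaks and all peaks of Chd4 shRNA1 replicate 1 (the anchor list) were the comparison sets, with anchor peaks without a shluci call added after seeing the data. Named sites were the 8 strongest and the 4 strongest each with the CTCF consensus, called in 0 or in 18 of the 18 other libraries, or called by all 4 Chd8 shRNA and no Chd8 shluci library. Named genes were the 10 nearest to most sites and listed genes with a site within 2 kb of a start or with 3 or more within 50 kb. Other listed genes named beside small counts fall outside this rule and were chosen after their values were seen. Sites on chromosome 18 are not reported singly. Alternatives were list length, score thresholds, overlap, anchor list, leaving out each library, motif mismatches and windows, and start distance.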

Additional observations from a re-analysis of the deposited data

Results flagged for a closer look

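The hairpins of the Chd8 set stood on opposite sides of shluci. The mean share of the gained sites called was 3.46 percentage points lower with Chd8 shRNA1 (−3.46) and 3.30 points higher with Chd8 shRNA2 than with Chd8 shluci. Both shRNA1 libraries lay below the shluci mean of 29.1% and both shRNA2 libraries above it. The shluci libraries themselves were at 24.3% and 33.9%, which spans 3 of the 4 hairpin libraries. Over all peaks of the anchor list the same differences were −2.96 and 2.80 points. The difference between the hairpins was not tested.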

How the results depend on the processing

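No paired analysis was possible because the results come from no test. The number of sites (3196) was 1119 with a −log10 q of at least 5 and 2007 without a shluci peak within 500 bp, stayed between 2670 and 3236 under the other 6 list settings, and was 4594 to 5904 when a Chd4 library was left out, since fewer lists then had to meet the rule. The share called in both Chd8 shluci libraries (15.5%) was 19.2% with Chd4 lists of equal length, 16.9% and 28.2% with a −log10 q of at least 2 and 5, 19.4% with 50% overlap, 10.3% without a shluci peak within 500 bp, 7.04% with Chd8 lists of the shortest Chd4 length, and 14.2% to 25.96% without single libraries. The difference between Chd8 shRNA and shluci kept within its spread, at −4.85 to 4.69 points without single libraries. With lists of equal length the IAA difference was 1.048 (serum-free) and 3.71 points (serum). Without single libraries it was −2.66 to 0.25 and 4.93 to 7.43 points. The CTCF consensus share was 0.438% without mismatch, 7.92% with at most 2, 0.282% within 50 bp and 3.88% within 250 bp of the summit, and 1.47% to 1.99% without single libraries. The share at starts was 6.33% without a shluci peak within 500 bp, 15.05% at 2000 bp, 5.69% for protein-coding genes, and 8.82% to 11.85% without single libraries. The causes were not tested. For copies of families 1 and 2 the lowest Chd4 shRNA library exceeded the highest shluci library by 117 and 163 copies, by 66 and 91 without copies that hold a gained site, and by 20 and 134 at 90% identity, alternatives chosen after seeing the data. The low pileups limit all absences of calls.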

Other observations

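Motifs at the gained sites lay beside the peak more often than under it, a measure chosen after seeing the data. The middle of the CTCF consensus was a median of 64 bp from the summit, over 50 bp away at 38 of 48 sites, and inside the called peak at 12 of them (25%). The octamer lay inside the peak at 48 of 137 sites (35.0%) and CCAATCA at 83 of 225 (36.9%). In the anchor list 29.3% of CTCF, 42.7% of octamer and 41.7% of CCAATCA matches were inside the peak, and in Chd8 shluci replicate 1 31.0%, 45.9% and 49.3%. Peaks shared by all 6 Chd4 lists had 42.4%, 63.2% and 61.1% inside, with a median length of 145 bp against 108 bp for the gained sites. In the longer peaks of control line replicate 1 without IAA 95.8%, 96.0% and 95.4% were inside, and the CTCF match was a median of 35.5 bp from the summit. The median peak length was 88 bp in the anchor list and 81 bp in Chd8 shluci replicate 1, and the part of peak length in these shares was not tested. Matches at the gained sites lay mostly at lower coordinates than the summit. For CTCF 31.25% were centred 60 to 80 bp below it and 2.08% as far above. These shares were 30.6% and 1.97% in the anchor list, and 28.0% and 1.81% in Chd8 shluci replicate 1. In control line replicate 1 without IAA they were 5.17% and 5.89%. Octamers stood at 30.7% and 1.46% at the gained sites and at 11.9% and 11.5% in Chd8 shluci replicate 1. The cause was not tested.

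Calls at copies of sequence family 2 were also counted in the CTCF lines. Of its copies, 115 and 112 were called in the control line without IAA, 125 and 121 with IAA, 121 and 124 in the wild-type line and 143 and 136 in the mutated line. Per 100000 peaks these were 86.5 and 80.4 in the control line without IAA, 104 and 93.9 with IAA, 78.0 and 94.3 in the wild-type line and 97.5 and 104 in the mutated line. On this scale the control line with IAA lay above the control line without IAA, without overlap. With IAA the control line overlapped both the wild-type and the mutated line, while the wild-type line lay below the mutated line. In serum 33 and 25 were called without IAA and 55 and 64 with IAA. The serum lists with IAA were the longer ones, and per 100000 peaks the copies were 47.7 and 41.8 without IAA and 76.6 and 77.6 with IAA.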
